A study of Danio rerio with 2 samples.

Results

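The transcripts described here are abundant maternal messenger RNAs of the fertilised zebrafish egg that were moderately more abundant in an explant of the animal pole than in an explant of the vegetal pole. They were chosen from the read counts of these same libraries. A member had a mean of at least 64 RPKM over both libraries and an animal/vegetal ratio of at least 2 and below 8. RPKM is the number of reads per kilobase of transcript scaled by the reads of the library, recomputed from the deposited reads. Of 50038 transcripts in the table, 1917 reached the mean of 64 RPKM and 127 of these (6.62%) were members. Because the level and the ratio chose the members, both are given as descriptions.

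The animal pole explant and the vegetal pole explant were each represented by 1 library. Mapped reads, summed over all transcripts, numbered 16533617 and 17685736. Whether a read was counted for more than 1 transcript was not tested. Both explants came from fertilised eggs of the AB strain of zebrafish (Danio rerio), collected 0 to 20 min after fertilisation. Polyadenylated RNA was sequenced. The labels name no treatment and no mutant allele, and do not give the number of eggs per explant, the plane of the cut or whether both explants came from the same eggs. Without replicate libraries, differences could not be set against a spread between replicates, and no p-values were computed. The 95% exact (Clopper-Pearson) intervals beside ratios come from the split of reads and cover counting error only. PCR copies of a molecule were not marked and count as separate reads, so the intervals may be too narrow even for that.

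In the zebrafish egg, cytoplasm streams towards the animal pole after fertilisation and gathers there as the blastodisc, from which the embryo forms, while the vegetal side holds most of the yolk. The zygotic genome is silent at this time, so the RNA in either explant was loaded by the mother during oogenesis. Some maternal RNAs are anchored at one pole, and others are spread through the egg. Each library is a bulk sample and its levels are scaled by its own reads, so a ratio compares shares of the 2 libraries. How much cytoplasm or RNA an explant held was not measured, so amounts of a transcript per explant are not known.

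Rows of the table are Ensembl transcripts. None of the 127 members carries a gene name in the table, and 0 of their identifiers were found in the tables of gene symbols at hand, which list genes and not transcripts. The members are therefore given by identifier, length and values, without a gene name, a function or a genome position, and the pole labels were not checked against localised marker genes. The table names beta actin1 and gapdh, which encode a cytoskeletal actin and a glycolytic enzyme. Neither was a member, and both were higher in the vegetal library. For gapdh the level was 46.1 RPKM in the animal library, against 106 RPKM in the vegetal library. Its animal/vegetal ratio of 0.434 places it in the mirror band, the vegetal-higher transcripts described below. For beta actin1 the level was 29.6 RPKM in the animal library, against 80.1 RPKM in the vegetal library. Its ratio was 0.369, and its mean of 54.8 RPKM was below the limit of 64 RPKM.

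By the rule, the members lay below the line of equal level, and they did not reach the highest levels. The highest mean among transcripts less than 2-fold apart was 21380 RPKM, against 1492 RPKM among the members. Their levels ran from 87.4 to 2157 RPKM in the animal library (median 180, quartiles 130 and 306) and from 17.5 to 827 RPKM in the vegetal library (median 62.0, quartiles 43.8 and 101). The ranges of levels overlapped: 42 members had at least 87.4 RPKM in the vegetal library, and 11 had more than 827 RPKM in the animal library. The ratio of animal to vegetal level had a median of 3.05, with quartiles of 2.37 and 3.82. Together the 127 transcripts took 6.42% of the animal reads (95% exact interval 6.41 to 6.43%) and 2.06% of the vegetal reads (2.06 to 2.07%). The 5 members with most animal reads held 19.8% of the members' reads in that library, so the sum was spread over many transcripts.

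**Figure D1:**
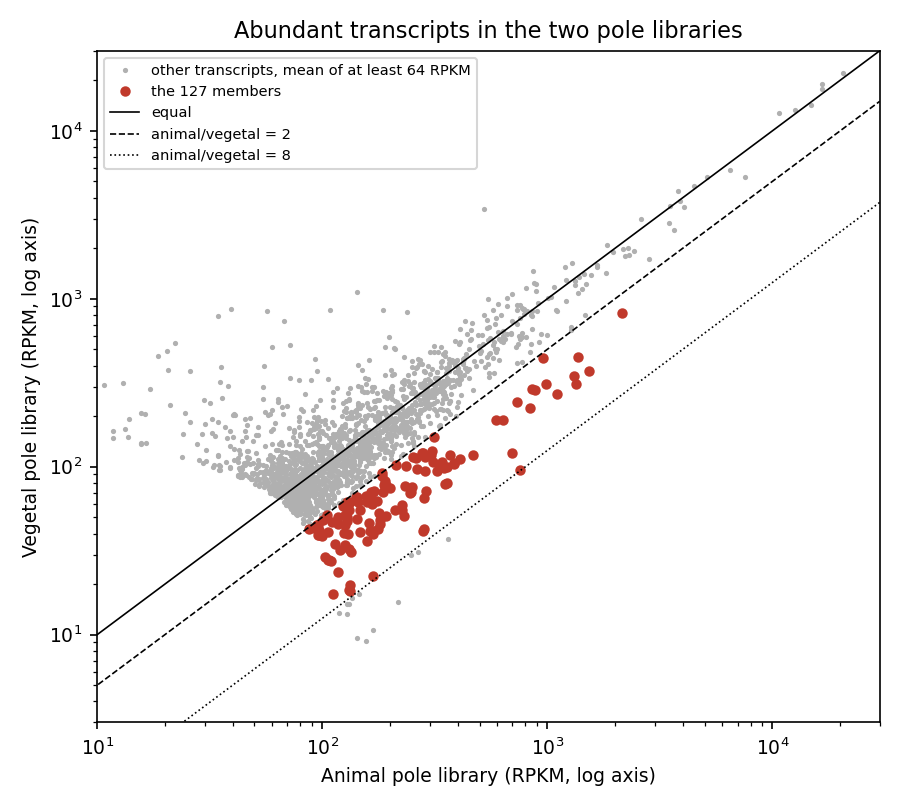
RPKM of the 1917 abundant transcripts in the animal (x axis) and vegetal (y axis) pole libraries, both axes logarithmic. Red points are the 127 members and grey points the other transcripts, of which those under 10 RPKM in the animal or under 3 RPKM in the vegetal library (17 transcripts) lie outside the plot. The members fill the strip between the lines of ratio 2 and 8 that the rule sets, from 87.4 to 2157 RPKM in the animal library.

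Placed in order of level among all 50038 transcripts, the members stood high in the animal library and lower in the vegetal one. The ranks come from the levels that the rule used, so they describe the choice and are not a further result. Of the 127, 14 were among the first 100 transcripts of the animal library and 1 was among the first 100 of the vegetal library. Among the first 500 there were 52 members in the animal library, against 12 in the vegetal library, and among the first 1000 there were 105 and 22 in the same order. The median member ranked 615 in the animal library, against 1997 in the vegetal library. No member reached the first 20 of the animal library, the highest being at rank 24.

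The most abundant member was ENSDART00000101601 (1548 nt). It had 2157 RPKM (55206 reads) in the animal library, against 827 RPKM (22646 reads) in the vegetal library, giving a ratio of 2.61 (95% counting interval 2.57 to 2.65). It ranked 24 in the animal library, against 74 in the vegetal library, which made it the single member among the first 100 at both poles. ENSDART00000063357 (1901 nt) came next, with 1532 RPKM (48155 reads) in the animal library, against 371 RPKM (12470 reads) in the vegetal library, giving a ratio of 4.13 (4.05 to 4.21). ENSDART00000002166 (1722 nt) had 1376 RPKM (39169 reads) in the animal library, against 451 RPKM (13728 reads) in the vegetal library, giving a ratio of 3.05 (2.99 to 3.11). The counting intervals of these ratios did not overlap, if each read is taken as independent.

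Short transcripts filled most of the next places. Of the 15 members with the highest mean, 11 were shorter than 1000 nt, and their median length was 867 nt. ENSDART00000149916 (876 nt) had 1348 RPKM in the animal library, against 311 RPKM in the vegetal library, and ENSDART00000149207 (559 nt) had 1312 and 345 RPKM in the same order. Their ratios were 4.34 (4.20 to 4.48) and 3.80 (3.66 to 3.95). ENSDART00000150070 (658 nt), with 1101 RPKM in the animal library, against 272 RPKM in the vegetal library, and ENSDART00000150138 (770 nt), with 836 RPKM in the animal library, against 223 RPKM in the vegetal library, had ratios of 4.04 (3.89 to 4.20) and 3.74 (3.60 to 3.90). These 4 transcripts thus lay between 3.74 and 4.34, well inside the limits of the rule.

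A second set of short, abundant members lay near a ratio of 3. ENSDART00000003621 (578 nt) had 982 RPKM in the animal library, against 311 RPKM in the vegetal library, giving a ratio of 3.16 (3.03 to 3.29). ENSDART00000132356 (609 nt) had 884 RPKM in the animal library, against 286 RPKM in the vegetal library, giving a ratio of 3.09 (2.97 to 3.22). ENSDART00000141201 (994 nt) had 858 RPKM in the animal library, against 290 RPKM in the vegetal library, giving a ratio of 2.96 (2.87 to 3.06). The counting intervals of ENSDART00000003621 and ENSDART00000132356 overlapped, as did those of ENSDART00000132356 and ENSDART00000141201, so the order of these neighbours is not fixed by the counts. ENSDART00000126889 (420 nt), the second shortest member, had 736 RPKM in the animal library, against 242 RPKM in the vegetal library, and ENSDART00000031498 (786 nt) had 636 RPKM in the animal library, against 191 RPKM in the vegetal library. Their ratios were 3.05 (2.89 to 3.22) and 3.33 (3.19 to 3.48).

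The remaining 3 of the 15 stood at the edges of the range of ratios. ENSDART00000079966 (867 nt) had 955 RPKM in the animal library, against 444 RPKM in the vegetal library, the lowest ratio of the 15 at 2.15 (2.09 to 2.21). ENSDART00000028017 (872 nt) had 700 RPKM in the animal library, against 121 RPKM in the vegetal library, giving a ratio of 5.79 (5.51 to 6.09). ENSDART00000002750 (3214 nt) had 759 RPKM (40324 reads) in the animal library, against 96.1 RPKM (5460 reads) in the vegetal library, giving a ratio of 7.90 (7.68 to 8.13), the highest of all 127. It ranked 87 in the animal library, against 1257 in the vegetal library, the widest gap in rank among the 15.

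**Figure D2:**
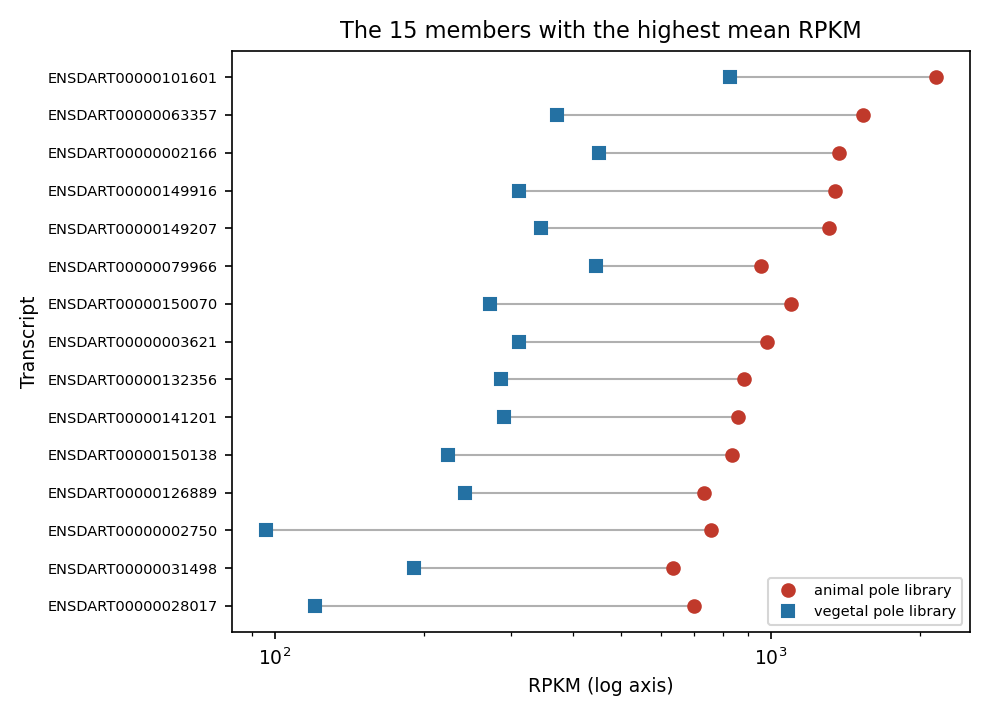
RPKM (log axis) of the 15 members with the highest mean, 1 row per transcript in order of mean, with the animal pole library as red circles, the vegetal pole library as blue squares and a grey line joining them. The line is shortest for ENSDART00000079966 (ratio 2.15) and longest for ENSDART00000002750 (ratio 7.90).

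Most members lay in the lower part of the range of ratios. Of the 127, 40 had a ratio under 2.5, 20 had a ratio of 2.5 to 3, 42 had a ratio of 3 to 4, 17 had a ratio of 4 to 6 and 8 had a ratio of 6 or more. If each read is taken as independent, counting error was small against these differences. The half-width of the interval had a median of 5.22% of the ratio and a largest value of 13.6%. The whole interval lay within 2 to 8 for 114 members; it reached below 2 for 10 and up to 8 for 3. Across the 127 transcripts, which come from the same libraries, Spearman's rho of the ratio was 0.16 with mean RPKM and 0.066 with length. The rule limits both the ratio and the level, so these values describe the chosen members only. The members' median ratio was 2.63 at 64 to 100 RPKM and 2.78 at 100 to 200 RPKM. It was 3.34 at 200 to 400 RPKM and 3.33 at 400 RPKM or more.

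At the top of the range, beside ENSDART00000002750, 3 less abundant transcripts exceeded a ratio of 7. ENSDART00000062350 (1618 nt) had 167 RPKM (4475 reads) in the animal library, against 22.3 RPKM (637 reads) in the vegetal library, giving a ratio of 7.51 (6.91 to 8.18). ENSDART00000123432 (1348 nt) had 133 RPKM (2971 reads) in the animal library, against 18.2 RPKM (434 reads) in the vegetal library, giving a ratio of 7.32 (6.62 to 8.12). ENSDART00000026178, at 5511 nt among the longer members, had 131 RPKM (11975 reads) in the animal library, against 18.5 RPKM (1801 reads) in the vegetal library, giving a ratio of 7.11 (6.77 to 7.48). The intervals of the first 2 of these reached 8, whereas that of ENSDART00000026178 did not.

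Next in order, ENSDART00000135472, ENSDART00000077941, ENSDART00000021856 and ENSDART00000143121 had ratios of 6.71, 6.67, 6.64 and 6.40, with animal levels of 279, 132, 282 and 112 RPKM and vegetal levels of 41.6, 19.8, 42.5 and 17.5 RPKM. The counting intervals of all 4 overlapped. The tenth highest ratio, 4.97 (4.35 to 5.70), belonged to ENSDART00000147517 (634 nt), which had 1226 animal and 264 vegetal reads, the fewest vegetal reads of any member. Between them lay ENSDART00000028017 at 5.79, whose counting interval overlapped that of ENSDART00000147517 below it and that of ENSDART00000143121 above it.

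At the lower limit the rule divides neighbours that the counts do not separate. The 3 members with the lowest ratios were ENSDART00000024815 at 2.01 (1.93 to 2.10), ENSDART00000137097 at 2.02 (1.84 to 2.22) and ENSDART00000126598 at 2.07 (1.88 to 2.28). ENSDART00000024815 had 185 RPKM in the animal library, against 92.0 RPKM in the vegetal library. The 3 transcripts just outside were ENSDART00000129150 at 1.99 (1.70 to 2.33), ENSDART00000148818 at 1.97 (1.79 to 2.16) and ENSDART00000003634 at 1.96 (1.87 to 2.05). The other 7 of the 10 lowest members, among them ENSDART00000099375 (312 RPKM in the animal library, against 150 RPKM in the vegetal library), lay between 2.08 and 2.12.

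At the upper limit the transcripts just outside were ENSDART00000011551 at 8.17 (7.50 to 8.92), ENSDART00000145884 at 8.26 (7.43 to 9.19) and ENSDART00000130129 at 8.40 (7.88 to 8.97), whose intervals all held 8. In mean level the lowest members were ENSDART00000143121 at 64.8 RPKM, ENSDART00000126598 at 64.9 RPKM and ENSDART00000098421 at 65.7 RPKM. Just below the level limit, with ratios in the same range, stood ENSDART00000055339 at 63.0 RPKM, ENSDART00000124108 also at 63.0 RPKM and ENSDART00000038149 at 61.7 RPKM. The limits thus cut a continuous range of values in both measures.

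**Figure D3:**
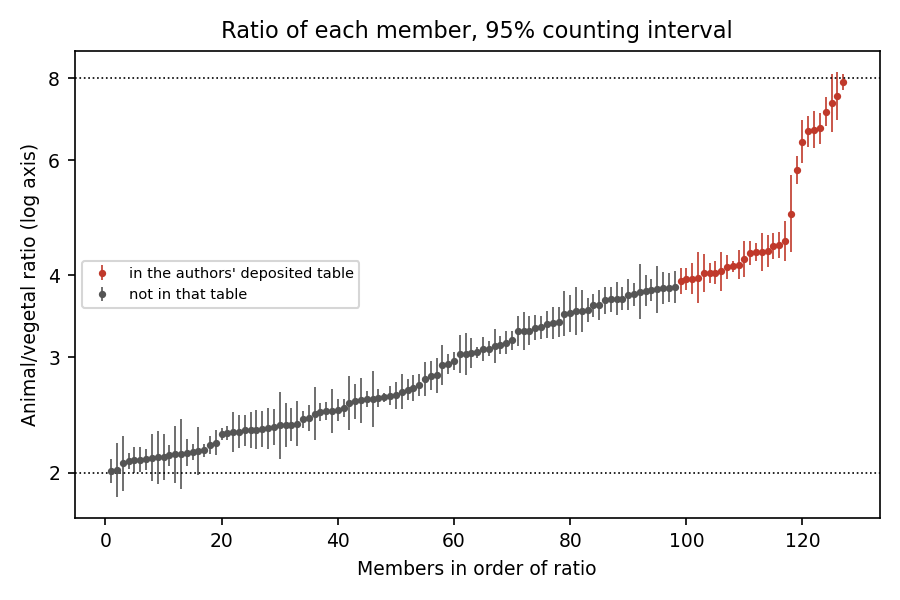
Animal/vegetal ratio (log axis) of the 127 members in order of ratio, with 95% exact counting intervals as bars and the limits of 2 and 8 as dotted lines. Red points are the 29 members in the authors' deposited table of differences, all with ratios of 3.92 or more, and dark grey points the 98 that are not.

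The authors' deposited table of differences divided the members by ratio. It held 29 of the 127, whose log2 fold changes, vegetal over animal, ran from -3.00 to -1.99. The FDR values in it are not given here. Without replicate libraries at either pole, they could not rest on a measured spread between replicates. Of all 1917 abundant transcripts, 2.71% were listed as higher at the animal pole in the authors' deposited table. The listed members had ratios of 3.92 or more and the unlisted ones ratios of 3.84 or less, so at these read numbers the list acted as a limit on the ratio. Both come from the same reads and the same contrast, and nothing independent is read from the overlap. ENSDART00000101601, the most abundant member, was among the 98 outside the authors' deposited table.

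Length is not part of the ratio, and by their median the members were longer than the other bands of abundant transcripts. The median length was 1652 nt in the 127 members (quartiles 920 and 2563 nt). It was 1336 nt (810 and 2210 nt) in the mirror band, the 144 transcripts (7.51% of the 1917) that were at least 2 and less than 8 times higher in the vegetal library. It was 1235 nt (785 and 1981 nt) in the 1588 transcripts less than 2-fold apart. Beyond the ratio of 8 it was 954 nt in the 23 transcripts higher in the animal library, none of which reached 4000 nt, and 1459 nt in the 35 higher in the vegetal library. Greater length therefore did not go with a higher animal level throughout. Transcripts are not replicates of a pole, so these medians are set side by side without a test. At least 2000 nt were reached by 51 members (40.2%), 43 of the mirror band (29.9%) and 382 of the evenly spread transcripts (24.1%). Shares close to that of the members were found beyond the ratio of 8, with 9 of 23 transcripts (39.1%) on the animal side and 13 of 35 (37.1%) on the vegetal side.

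The contrast was widest at the ends of the length range. Of the 120 abundant transcripts shorter than 500 nt, 2 (1.67%) were members and 16 (13.3%) were in the mirror band. Of the 72 of 4000 nt or more, 11 (15.3%) were members and 3 (4.17%) were in the mirror band. Between 500 and 3000 nt the shares of both were closer in each class, from 5.48 to 9.18% for members and from 5.94 to 10.1% for the mirror band. The median log2 ratio (animal over vegetal) of all abundant transcripts ran from -0.10 under 500 nt, through 0.03, 0.10, 0.13 and 0.17, to 0.39 at 4000 nt or more. Of the 11 members of 4000 nt or more, ENSDART00000098126, ENSDART00000113351 and ENSDART00000128733 had similar read counts (13289, 13771 and 12485 in the animal library). Their ratios were 2.48, 2.41 and 2.48. Whether they share reads was not tested, so the rows may not be independent.

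The longest member was ENSDART00000111806 (8469 nt), which had 143 RPKM (20068 reads) in the animal library, against 66.3 RPKM (9923 reads) in the vegetal library, giving a ratio of 2.16 (2.11 to 2.22). ENSDART00000127575 (6611 nt) had 159 RPKM (17352 reads) in the animal library, against 61.3 RPKM (7170 reads) in the vegetal library, giving a ratio of 2.59 (2.52 to 2.66). ENSDART00000064546 (6039 nt) had 277 RPKM (27656 reads) in the animal library, against 121 RPKM (12893 reads) in the vegetal library, giving a ratio of 2.29 (2.25 to 2.34). The 11 members of 4000 nt or more had a median ratio of 2.41, below the 3.05 of all members, although ENSDART00000026178 (5511 nt) was among them at 7.11. The 11 members of at least 3000 and under 4000 nt had a median ratio of 3.83, so the median ratio did not follow length in one direction. At the other end, the shortest were ENSDART00000149119 (330 nt), with 168 RPKM (914 reads) in the animal library, against 70.9 RPKM (414 reads) in the vegetal library, and ENSDART00000126889. ENSDART00000133431 (514 nt) had the fewest reads in all, 779 in the animal library, against 390 in the vegetal library.

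**Figure D4:**
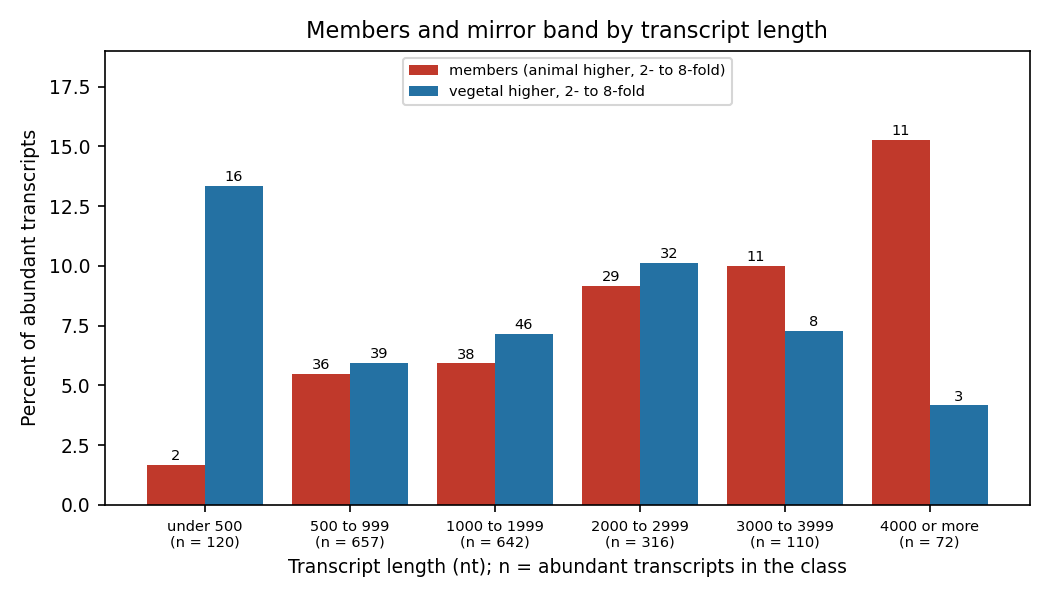
Percent of the abundant transcripts in each length class (nt) that were members (red) or in the mirror band, 2- to 8-fold higher in the vegetal library (blue), with the number of transcripts above each bar. Members make up 1.67% of the class under 500 nt and 15.3% of the class of 4000 nt or more, whereas the mirror band makes up 13.3% and 4.17% of these classes.

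The order of lengths depended on the level. At a mean of 100 to 200 RPKM the median length was 1844 nt in the 47 members, 1534 nt in the mirror band and 1184 nt in the evenly spread transcripts. At 200 to 400 RPKM it was 1690 nt in the 20 members, 1078 nt in the mirror band and 1109 nt in the evenly spread ones. At 64 to 100 RPKM it was 1652 nt in the 45 members, 1227 nt in the mirror band and 1484 nt in the evenly spread ones, so members lay closer to the evenly spread transcripts there than at 100 to 400 RPKM. At 400 RPKM or more it turned round: the 15 members there had a median of 867 nt, the 5 transcripts of the mirror band 2199 nt and the evenly spread ones 1047 nt.

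The share of transcripts in the members' range of ratios changed little with level, from 6.16% at 64 to 100 RPKM, through 7.14% and 5.97%, to 7.77% at 400 RPKM or more. In the mirror band it was 8.07%, 8.66%, 6.87% and 2.59% at the same levels. Below the limit, at 32 to 64 RPKM, 6.82% of 1554 transcripts had a ratio in the members' range and 13.2% in that of the mirror band. Among these classes of level, members therefore outnumbered the mirror band only at 400 RPKM or more, by 15 to 5.

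Coverage, the percentage of a transcript's length touched by reads, was not used to choose the members, though it comes from the same reads. The members' median was 97% in the animal library, against 95% in the vegetal library. In 13 members coverage was 100% in both, which was not counted for the other abundant transcripts. At least 95% was covered for 91 members (71.7%) in the animal library, against 66 (52.0%) in the vegetal library. In the mirror band it was 65 transcripts (45.1%) in the animal library, against 105 (72.9%) in the vegetal library. Among the evenly spread transcripts it was 920 (57.9%) in the animal library, against 1007 (63.4%) in the vegetal library. Coverage was thus more complete in the library with more reads of a transcript, in both directions.

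For part of the members the order was the other way. Coverage was higher in the animal library for 70 members (55.1%), equal for 31 and lower for 26 (20.5%). Every member had more reads per library total there. Among the 1588 evenly spread transcripts coverage was lower in the animal library for 670 (42.2%) and higher for 439 (27.6%). Lower animal coverage was thus less common among members than among these. The rule chose members for more animal reads, and coverage comes from the same reads, so this difference is not a further result. Coverage was at least 5 percentage points lower in the animal library for 11 members and at least 5 points higher for 29. Among the 1588 evenly spread transcripts these numbers were 228 and 112, in the opposite order. The groups differ in size, so these numbers compare within a group only. The following transcripts were chosen for these differences after the values were seen. ENSDART00000141201 was covered over 82% by 14107 animal reads and over 98% by 5092 vegetal reads, which leaves about 179 nt without reads in the animal library, against 20 nt in the vegetal library. ENSDART00000002166, the third most abundant member, was covered over 80% by 39169 animal reads and over 94% by 13728 vegetal reads, with about 344 and 103 nt uncovered in the same order. The longest member, ENSDART00000111806, was covered over 92% in the animal library, against 100% in the vegetal library, a difference of about 678 nt.

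In the opposite direction, ENSDART00000001804 (2560 nt) was covered over 100% by 7466 animal reads and over 71% by 1921 vegetal reads. About 742 nt had no vegetal read, in a transcript whose ratio was 4.16. ENSDART00000121680 (1670 nt) was covered over 77% in the animal library, against 62% in the vegetal library, with a ratio of 4.24. For such transcripts the single ratio averages over stretches that the libraries covered unequally, and the table does not say where along the transcript these lie. In 7 members coverage was under 80% in both libraries, which was not counted for the other abundant transcripts. The lowest was ENSDART00000150910 (818 nt), at 39% in the animal library, against 36% in the vegetal library, with 1670 animal and 847 vegetal reads, so its RPKM spreads reads from a part of the transcript over its whole length.

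**Figure D5:**
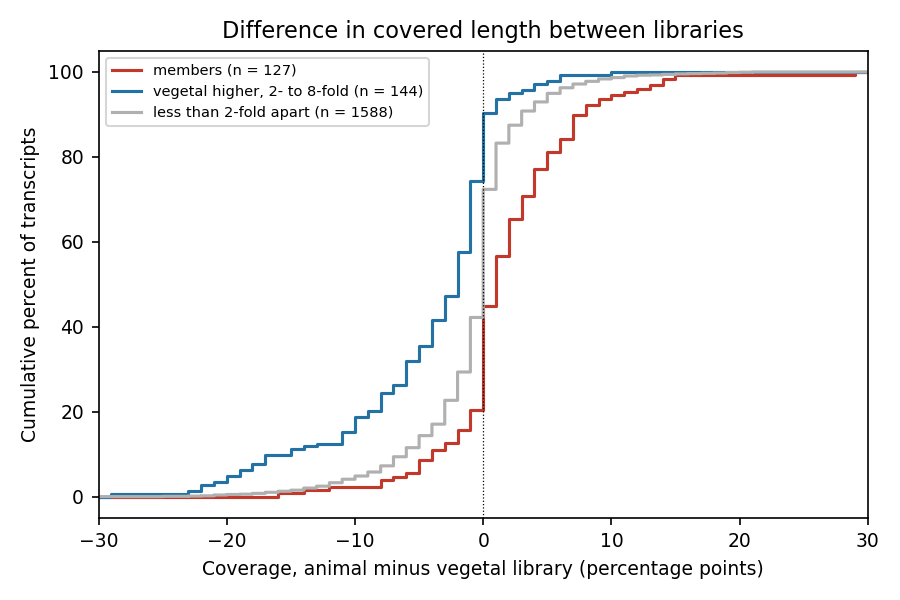
Cumulative percent of transcripts (y axis) by the difference in coverage, animal minus vegetal library, in percentage points (x axis), for the 127 members (red), the 144 transcripts of the mirror band (blue) and the 1588 transcripts less than 2-fold apart (grey). The median differences are 1, -2 and 0 points. Left of 0, where the animal library covered less of the transcript, lie 26 members, 107 of the mirror band and 670 of the third group.

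In 3 pairs of members the length and both read counts agreed within 2%. ENSDART00000021856 (2077 nt) and ENSDART00000135472 (2100 nt) each had 9685 animal reads, with 1561 and 1544 vegetal reads. ENSDART00000016365 (1633 nt) had 9638 animal and 2323 vegetal reads, and ENSDART00000140695 (1662 nt) had 9604 and 2305. ENSDART00000057293 (3324 nt) had 5839 animal and 1625 vegetal reads, and ENSDART00000151213 (3322 nt) had 5859 and 1638. Whether the counting assigned the same reads to both transcripts of a pair was not tested, and no transcript outside the members matched a member this closely. Near matches outside the limit of 2% were not counted. ENSDART00000130492 (3328 nt), with 6001 animal and 1622 vegetal reads, stood beside the third pair in this way. Counting each of the 3 pairs once leaves 124 members, which depends on that limit, and the number of transcripts is in any case not a number of genes. The same step over all 1917 abundant transcripts left out 32, and the mirror band stayed at 144.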

How the data were processed

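The deposited expression table gives, per the file headers, transcript length, mapped read count, percent of the transcript covered, mean read depth (a coverage signal) and RPKM for each library. The build was Zv9, which the submitters' processing notes name. Aligner, read counter and use of strand were not given in the sources used here. Values of isoforms and paralogs that share sequence are therefore uncertain. The authors' deposited table of differences holds log2 fold changes, p-values and FDR from edgeR, per the submitters' processing notes.

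RPKM was recomputed from the counts and each library's total, and for members differed from the deposited RPKM by at most 0.00227%. Over the members, depth multiplied by covered bases and divided by reads had a median of 50.9 in either library. No count test was run, because 1 library per pole leaves no estimate of spread. Ratio intervals came from the split of reads. The steps for bands and intervals were run on simulated counts with planted animal-higher changes inside the band and counting error only. That run held no spread between libraries, shared reads or PCR copies, so it checked the code and not these limits. Values were computed in Python 3.11.15 (scipy 1.17.1, numpy 2.4.6, pandas 2.3.3) and plotted with matplotlib 3.10.9, with trimmed-mean (TMM) scaling from edgeR 4.0.16 (R 4.3.3) as an alternative.

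The members, the mirror band and the rule for named transcripts were chosen with earlier results of these data known. Named were the 15 highest means, the 10 highest and 10 lowest ratios, the 3 values inside and outside each limit, the 3 longest, shortest and least counted members, and any named row. Gene lists were not used, because identifiers are not tied to names here, and the transcripts of vrtn and bmp2b were not analysed here.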

Additional observations from a re-analysis of the deposited data

How the results depend on the processing

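The number of members, 127, and of the mirror band, 144, stayed within 1.5 times under TMM scaling, centring of the abundant transcripts, the deposited RPKM, a pseudocount of 1, no upper limit of the ratio, a counting interval wholly inside the band and a minimum of 100 reads. Members and mirror band numbered 233 and 349 at a mean of at least 32 RPKM, 82 and 85 at 100 RPKM, 304 and 306 at a ratio of at least 1.5, and 67 and 63 at a ratio of at least 3. Members thus outnumbered the mirror band at a ratio of 3 and not at the other limits. These counts follow from the limits themselves. TMM scaling moved the log2 ratio by 0.011 and centring by -0.086, which gave 121 members and 164 in the mirror band. The count of 121 hides exchange at both limits of the ratio. Under centring the named members with the lowest ratios fell below 2, from 1.89 (ENSDART00000024815) to 1.99 (ENSDART00000142112). ENSDART00000011551 (7.70), ENSDART00000145884 (7.78) and ENSDART00000130129 (7.92) came under 8. With the pseudocount, ENSDART00000024815 (1.998) and ENSDART00000137097 (1.99987) fell below 2 and ENSDART00000011551 (7.76) came under 8. Of 50 named ratios, 27 moved past their counting interval under centring. Its shift was too small to turn the direction of any of them.

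The members' share of reads was 6.42% in the animal library, against 2.06% in the vegetal one. It was 6.24% and 1.94% under centring, 7.81% and 2.54% at 32 RPKM, 5.28% and 1.70% at 100 RPKM, and 7.18% and 2.11% with no upper limit. It was 12.8% and 5.85% at a ratio of 1.5, 3.66% and 0.923% at 3, 6.40% and 2.04% with the pseudocount, and 5.99% and 1.96% with intervals inside the band. Leaving out one of each near-identical pair, an alternative chosen after seeing the data, gave 6.27% and 2.03%.

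Median lengths were not recomputed under centring, other limits of the ratio, the pseudocount or the deposited RPKM. Among members the median was 1458 nt at a ratio under 2.5 and 2367 nt at 6 or more. Under TMM scaling, the other levels and the limits on length, interval, reads and near-identical pairs, the median length of members stayed between 1618 and 1690 nt. That of the evenly spread transcripts was 1315 nt at 32 RPKM, 1129 nt at 100 RPKM and 1306 nt without transcripts under 500 nt. That of the mirror band ran from 1314 to 1570 nt, and was highest without transcripts under 500 nt, where that of members was 1662 nt. Leaving out a replicate was likewise not an option. No paired analysis was possible because the animal and the vegetal explant have 1 library each.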
